A study of Mus musculus with 6 samples.

Results

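The 10 genes described here are the BMP and activin signalling genes Bmp2, Bmp4, Bmp7, Inhba, Fst, Id1, Id2, Id3, Smad6 and Smad7, picked by gene name from the 54532 genes of the expression table, where each matched 1 row. They were measured by RNA-seq in mouse back epidermis. The 3 Spry1_KO samples carried floxed Spry1 on both alleles together with K14-Cre-ERT2, a Cre recombinase that tamoxifen activates and that the keratin 14 promoter drives in basal keratinocytes. The 3 Control samples carried floxed Spry1 on both alleles without Cre. Tamoxifen was given to both genotypes by gavage for 4 weeks, 4 times each week, at a dose of 0.1 mg for each g of body weight. Spry1 encodes Sprouty1, which dampens signals from growth factor receptors. No group carried Cre without floxed Spry1, so the effect of Cre and that of Spry1 loss cannot be told apart. Ages are not given. Whether each sample was a different mouse is not stated either, so the p-values reflect the spread among these samples, and some of that spread may be technical.

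BMP ligands bind paired serine/threonine kinase receptors that phosphorylate Smad1, Smad5 and Smad9. These join Smad4 and enter the nucleus, where the Id genes, which encode inhibitors of basic helix-loop-helix factors, and the inhibitory Smads Smad6 and Smad7 are well known targets. Activins use related receptors and Smad2 and Smad3, and follistatin, the product of Fst, binds and neutralises activins. In skin, BMP signalling is known for holding hair follicle stem cells at rest and for keratinocyte differentiation, and activin for wound repair. The question asked of these genes was whether the Id genes follow the change of Bmp4.

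Levels are FPKM, fragments per kilobase of gene scaled to sequencing depth, so they can be compared between genes. Reads recovered from them numbered 18383334 to 21024721 per sample. A fold change was called when its limma p, adjusted by Benjamini-Hochberg over all 12629 genes averaging 1 FPKM or more, lay under 0.05. It is given on the log2(FPKM + 1) scale, which understates the change of low genes. The labels were borne out by Spry1, at 1.06, 1.49 and 1.28 FPKM in Spry1_KO samples, against 25.8, 28.2 and 34.4 FPKM in Control samples. Differences were widespread, with 54% of the tested genes called, 3736 of them higher and 3079 lower. That split depended on the scaling. It was 2055 higher and 4470 lower after scaling to TPM, which moved the median of all genes by -0.25 (log2), and 2876 and 3736 after scaling to the recovered reads, which moved it by -0.11. Spry1_KO replicate 2 stood apart in sex-linked genes. It read 19.3 FPKM for the Y-linked Eif2s3y, against 0.203 and 0.0438 FPKM in the other Spry1_KO samples and 0 in every Control sample. Control replicate 3 stood apart from the other Control samples on the second principal component, which held 8.475% of the variance. The keratinocyte markers of an epidermal sample were high throughout, summing to 22203 to 27833 FPKM over 10 genes in Spry1_KO samples, against 12299 to 14929 FPKM in Control samples, mostly from keratins, with 4 of the 10 genes higher and 4 lower.

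Of the 10 genes, 9 passed the filter and 7 of these were called, where 54% of all tested genes were. Bmp7, Fst, Id3, Smad6 and Smad7 were higher and Bmp4 and Id2 lower in Spry1_KO samples, while Bmp2 and Id1 were not called. Inhba lay below the filter, a mean over both groups. Bmp4 passed it through Control samples and Smad6 through Spry1_KO samples, each averaging under 1 FPKM in the other group. The groups did not overlap for 7 of the 9 tested genes, against 64.2% of all tested genes. The median log2 fold change of the 9 was 0.40, against 0.03 over all tested genes.

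**Figure D1:**
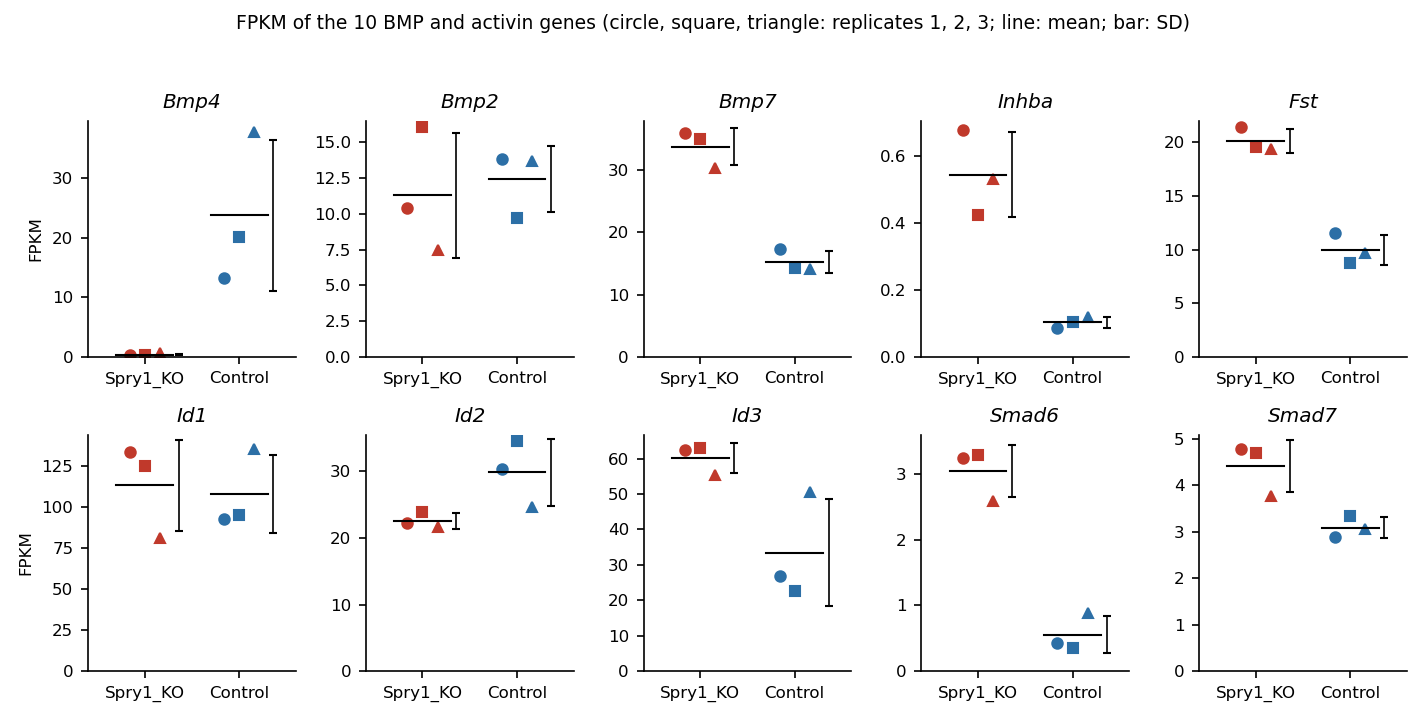
FPKM (linear axes from 0) of each of the 10 genes in the 3 Spry1_KO samples (red, left) and the 3 Control samples (blue, right), with the mean and SD of each group. Bmp4 lies near 0 in every Spry1_KO sample, while the groups overlap for Bmp2 and Id1.

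Among the ligands, Bmp4 showed by far the greatest change of these genes. Bmp4 read 0.332, 0.256 and 0.568 FPKM in Spry1_KO samples, against 13.3, 20.2 and 37.8 FPKM in Control samples. No Spry1_KO sample came near any Control sample, although Control replicate 3 was well above the other Control samples. As whole reads these values were 15, 10 and 21 in Spry1_KO samples and 544, 829 and 1656 in Control samples, so the low level rests on few reads. In bulk samples such as these, fewer cells of a type and less RNA per cell cannot be told apart. The mean fell to 0.385 ± 0.162 FPKM in Spry1_KO samples, against 23.7 ± 12.6 FPKM in Control samples (SD, n = 3 each), and was 61.6 times higher in Control. The log2 fold change was -4.04 ± 0.34 (SE), with a 95% interval of -4.84 to -3.24 and a limma adjusted p of 0.000158. It ranked 18th among the falls of all tested genes. The gene lies on the minus strand at chr14:46383520-46390669 (GRCm38), and 89 of its exonic bases overlap Gm15217 on the other strand, which averaged 0.185 FPKM.

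The stretch before the start of Bmp4 is shown because this gene changed most. It is the 250 bases upstream of the RefSeq start at chr14:46390670-46390919 (GRCm38.p6, minus strand), written 5′ to 3′, with the E-box CANNTG, the sequence class that basic helix-loop-helix factors bind, in capitals.
Bmp4: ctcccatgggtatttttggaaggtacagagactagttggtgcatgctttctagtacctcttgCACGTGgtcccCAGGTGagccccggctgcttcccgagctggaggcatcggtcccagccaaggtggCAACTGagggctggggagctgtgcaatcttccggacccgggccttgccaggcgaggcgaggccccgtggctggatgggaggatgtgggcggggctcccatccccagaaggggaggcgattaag
It held 3 E-boxes, a motif present in 66.2% of 32851 RefSeq windows of this length. The Smad box GTCTG and the GC-rich Smad element GGCGCC, searched on both strands, were not among these letters. Such matches are a description of the letters only.

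Bmp7, another BMP ligand, moved the other way. Bmp7 read 35.98, 35.1 and 30.4 FPKM in Spry1_KO samples, against 17.3, 14.3 and 14.2 FPKM in Control samples. All Spry1_KO values were above all Control values, and the mean was 2.22 times that of Control. On the log2 scale it was higher by 1.10 ± 0.11 (SE; limma adjusted p = 0.000302). Bmp2, the closest relative of Bmp4, read 10.4, 16.1 and 7.45 FPKM in Spry1_KO samples, against 13.8, 9.74 and 13.7 FPKM in Control samples. The groups overlapped, with Spry1_KO replicate 2 the highest of all 6 samples. Bmp2 had a log2 fold change of -0.17 ± 0.26 (SE), a 95% interval of -0.79 to 0.45 and a limma adjusted p of 0.609. Both genes lie on chromosome 2, Bmp7 at chr2:172868012-172940321 (minus strand) and Bmp2 at chr2:133552159-133562885 (plus strand).

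The makeup of the ligand transcripts differed more than their sum. Bmp2, Bmp4 and Bmp7 together summed to 46.7, 51.4 and 38.4 FPKM in Spry1_KO samples, against 44.4, 44.2 and 65.7 FPKM in Control samples, and these ranges overlapped. Bmp4 made up 0.711%, 0.498% and 1.48% of that sum in Spry1_KO samples, against 29.9%, 45.6% and 57.6% in Control samples. Bmp7 held 77.0%, 68.3% and 79.1% of it in Spry1_KO samples, against 38.9%, 32.3% and 21.6% in Control samples. Bmp7 was thus the most abundant of these ligand genes in every Spry1_KO sample, while Bmp4 led in Control replicates 2 and 3.

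**Figure D2:**
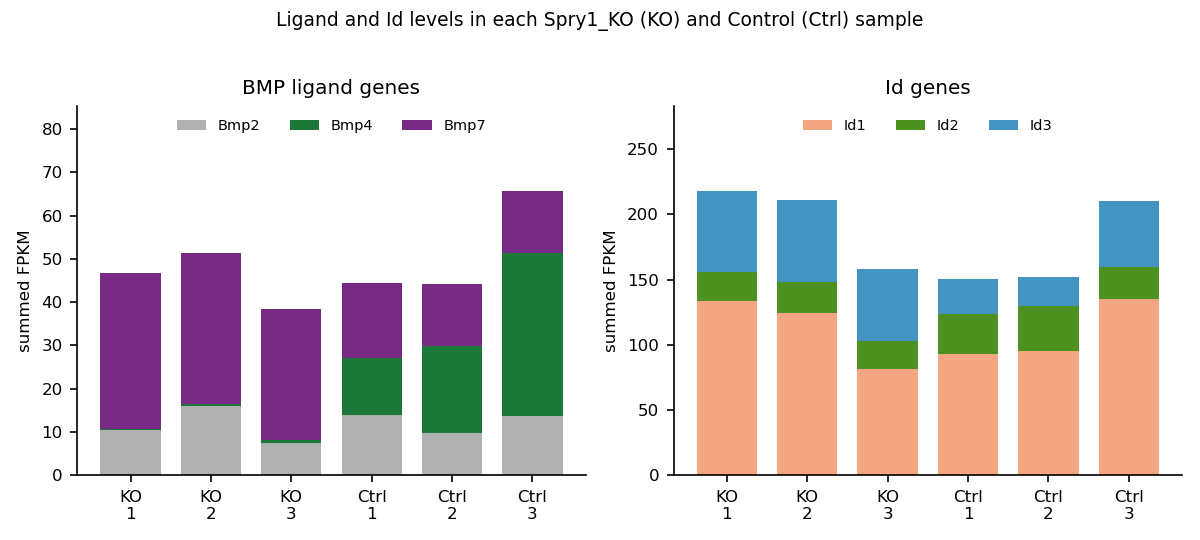
Summed FPKM of Bmp2, Bmp4 and Bmp7 (left panel) and of Id1, Id2 and Id3 (right panel) in each Spry1_KO and Control sample. Bmp4 is at most 1.48% of the ligand sum in Spry1_KO samples, and the Id sum of 158 to 218 FPKM there overlaps the 150 to 210 FPKM of Control samples.

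On the activin side, Inhba, which encodes the subunit of activin A, was scarce. Inhba read 0.678, 0.424 and 0.533 FPKM in Spry1_KO samples, against 0.0859, 0.103 and 0.120 FPKM in Control samples, which are 87, 47 and 56 reads in Spry1_KO samples and 10, 12 and 15 reads in Control samples. The groups did not overlap and the mean was 5.29 times that of Control, but the mean over all samples was below the filter and the gene was not tested. With no filter its log2 fold change was 0.48 with a limma adjusted p of 0.00575. Fst, the activin antagonist, read 21.4, 19.6 and 19.4 FPKM in Spry1_KO samples, against 11.5, 8.75 and 9.65 FPKM in Control samples. Every Spry1_KO value of Fst was above every Control value, with a mean 2.02 times as high. Fst had a log2 fold change of 0.95 ± 0.11 (SE) and a limma adjusted p of 0.000518. Inhba lies at chr13:16011851-16031621 (plus strand) and Fst at chr13:114452290-114458951 (minus strand), where 115 of its exonic bases overlap Gm47040 on the other strand, which averaged 0.0309 FPKM. In each sample Fst transcripts exceeded Inhba transcripts, by 31.6 to 46.2 times in Spry1_KO samples and 80.1 to 134 times in Control samples on the FPKM scale.

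Among the Id genes, Id1 was not called, Id3 rose, and Id2 fell by far less than Bmp4. Id1 read 133, 124 and 81.2 FPKM in Spry1_KO samples, against 92.8, 94.9 and 135 FPKM in Control samples. The groups overlapped over nearly their whole range. Id1 (chr2:152736251-152737410, plus strand) had a log2 fold change of 0.06 ± 0.23 (SE) and a limma adjusted p of 0.844, and its 95% interval of -0.48 to 0.60 lay wholly above that of Bmp4. Its sign turned with the scaling, at -0.22 after scaling to TPM (limma adjusted p = 0.536).

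Id3 (chr4:136143497-136145755, plus strand) rose. It read 62.4, 62.9 and 55.4 FPKM in Spry1_KO samples, against 26.9, 22.5 and 50.6 FPKM in Control samples. The groups did not overlap, but Control replicate 3 lay close to the lowest Spry1_KO sample. Id3 was higher by 0.92 ± 0.28 (SE) on the log2 scale, with a limma adjusted p of 0.0276 and a 95% interval of 0.26 to 1.57. The call was lost on leaving out any of the 3 Spry1_KO samples or Control replicate 1 or 2 (limma adjusted p = 0.0598 to 0.0847), with no filter (0.0638) and after scaling to TPM (0.124) or to the recovered reads (0.0551). Leaving out Control replicate 3 kept the call, and the log2 fold change was then 1.25.

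Id2 (chr12:25093799-25097140, minus strand) fell by a small amount. It read 22.2, 23.9 and 21.6 FPKM in Spry1_KO samples, against 30.4, 34.5 and 24.6 FPKM in Control samples. All Spry1_KO values were below all Control values, with a gap of under 1 FPKM to Control replicate 3. Id2 had a log2 fold change of -0.38 ± 0.13 (SE), a 95% interval of -0.68 to -0.07 and a limma adjusted p of 0.0425. This call too was lost on leaving out any 1 of the same samples (limma adjusted p = 0.0708 to 0.115) and with no filter (0.0763). After scaling to TPM the fall was -0.66 (limma adjusted p of 0.00366).

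Summed over Id1, Id2 and Id3, the level was 218, 211 and 158 FPKM in Spry1_KO samples, against 150, 152 and 210 FPKM in Control samples. Id1 transcripts outnumbered Bmp4 transcripts by 401, 486 and 143 times in Spry1_KO samples, against 6.99, 4.71 and 3.57 times in Control samples, on the FPKM scale. The share of Id3 in the Id sum was 28.6%, 29.8% and 35.0% in Spry1_KO samples, against 17.9%, 14.8% and 24.1% in Control samples. Among the Control samples, replicate 3 had the highest Bmp4, Id1, Id3 and Smad6 and the lowest Id2.

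Sequence upstream of the RefSeq starts of Id2 and Id3 is shown for the Smad motifs it holds. The printed stretches lie within the GENCODE bounds of these genes given above, downstream of the GENCODE starts. The RefSeq windows of these genes partly or wholly overlap exons of longer GENCODE transcripts, so for Id2 the part outside exons is printed, at chr12:25096254-25096342 (GRCm38.p6, minus strand), with GGCGCC in capitals. For Id3, 25 bases around each of 2 Smad boxes are printed, at chr4:136143645-136143669 and chr4:136143744-136143768 (plus strand), with GTCTG or its reverse complement in capitals.
Id2: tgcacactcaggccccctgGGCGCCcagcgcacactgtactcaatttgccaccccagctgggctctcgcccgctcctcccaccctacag
Id3 box 1: tcctcggcgtCAGACcagcctaagg
Id3 box 2: acccttggcgGTCTGttttgaataa
GGCGCC was found in 9.59% and GTCTG in 42.2% of all windows of 250 bases. Neither motif was found in the window of Smad6. The palindrome GTCTAGAC, found in 0.167% of all windows, and the AP-1 site TGANTCA, found in 6.75%, were in none of the 5 members matched, which were Bmp4, Id2, Id3, Inhba and Smad6.

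Both inhibitory Smads rose. Smad6 (chr9:63953076-64022059, minus strand), which blocks BMP receptor signalling, read 3.25, 3.29 and 2.58 FPKM in Spry1_KO samples, against 0.428, 0.358 and 0.880 FPKM in Control samples. The groups were well apart, from 209, 183 and 136 reads in Spry1_KO samples and 25, 21 and 55 in Control samples. The Smad6 mean was 5.47 times that of Control, with a log2 fold change of 1.39 ± 0.16 (SE) and a limma adjusted p of 0.000583. On reads, limma-voom, whose log scale has no added 1 FPKM, gave Smad6 a log2 fold change of 2.38.

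Smad7 (chr18:75367529-75395935, plus strand), which acts on both the BMP and the TGF-beta and activin branches, read 4.78, 4.70 and 3.76 FPKM in Spry1_KO samples, against 2.88, 3.34 and 3.05 FPKM in Control samples. The groups did not overlap, and Spry1_KO replicate 3 was nearest to the Control samples. Smad7 had a log2 fold change of 0.40 ± 0.11 (SE) and a limma adjusted p of 0.019. The call was lost after scaling to TPM (limma adjusted p of 0.327) or to the recovered reads (0.082), in limma-voom (0.0937), without replicate 1 (0.0705) or replicate 2 (0.0686) of Spry1_KO, without replicate 1 of Control (0.0633), and with both Spry1_KO replicate 2 and Control replicate 3 left out (0.0825). Smad7 transcripts outnumbered those of Smad6 by 1.47, 1.43 and 1.46 times in Spry1_KO samples, against 6.72, 9.32 and 3.47 times in Control samples, on the FPKM scale.

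**Figure D3:**
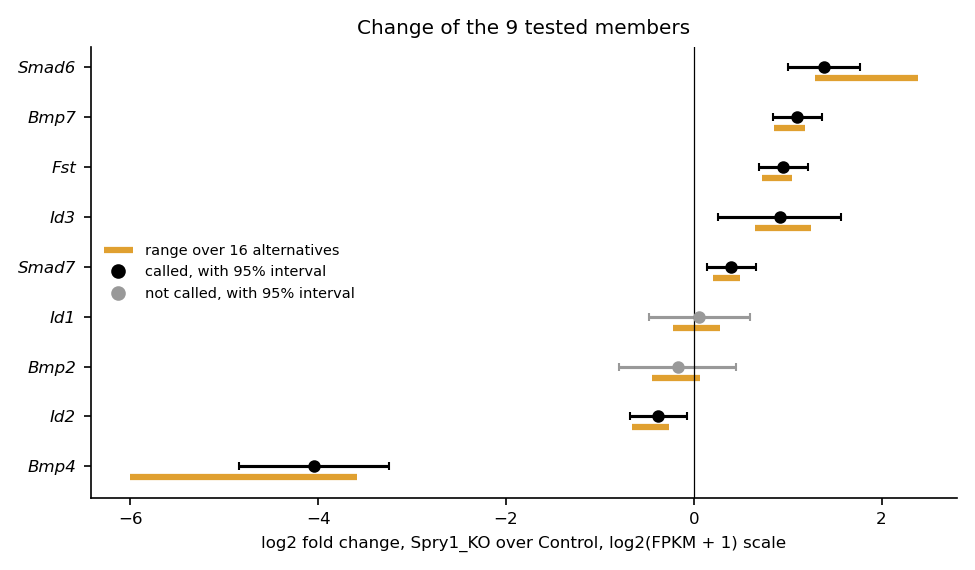
Log2 fold change of the 9 tested genes, Spry1_KO over Control on the log2(FPKM + 1) scale, with 95% intervals (black where called, grey where not) and, in orange, the range over 16 alternative settings, of which limma-voom is on a log2 scale of reads. Bmp4 at -4.04 lies far below Id1 at 0.06, Id2 at -0.38 and Id3 at 0.92.

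By level, the order of the genes in Spry1_KO samples was Id1, Id3, Bmp7, Id2, Fst, Bmp2, Smad7, Smad6, Inhba and Bmp4, running from a mean of 113 FPKM to 0.385 FPKM. Of these neighbours only Inhba and Bmp4 overlapped. The order in Control samples was Id1, Id3, Id2, Bmp4, Bmp7, Bmp2, Fst, Smad7, Smad6 and Inhba, running from 108 to 0.103 FPKM. There Id3 overlapped Id2, Id2 overlapped Bmp4, Bmp4 overlapped Bmp7 and Bmp2 overlapped Fst. Bmp4 was thus last in Spry1_KO samples and just below the Id genes in Control samples. The genes whose log2(FPKM + 1) over the 6 samples was most like Bmp4 by Pearson's r were Wls (0.9998), Wnt16, Bicral, Col16a1 and Mcc (0.998), and 104 tested genes exceeded 0.99. Those most like Id1 were Edc4 (0.997), Nup155, Inppl1, Abhd14a and Trrap (0.977). These values describe 6 samples that share the difference between genotypes.

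Markers of other cell types differed beside these genes. Over all tested genes 29.6% were higher and 24.4% lower. The filter was a mean over both groups, so a marker could pass it through 1 group alone. Markers of the dermal papilla, a fibroblast cluster known to make BMP4, summed to 2.26 to 2.52 FPKM over 8 genes in Spry1_KO samples, against 7.21 to 8.25 FPKM in Control samples. Of its 3 tested genes 2 were lower, Rspo3 and Prlr, and Crabp1 was not called. Rspo3 and Prlr averaged 0.0619 and 0.946 FPKM in Spry1_KO samples, against 3.23 and 2.92 FPKM in Control samples, so both passed the filter through Control samples. Crabp1 averaged 1.18 FPKM in Spry1_KO samples and 1.40 FPKM in Control samples. Sox2 was listed at 0 in every Spry1_KO sample and in Control replicates 2 and 3, Hey2 averaged 0.0833 and 0.0356 FPKM in Spry1_KO and Control samples, and Corin averaged 0.0630 and 0.132 FPKM in Spry1_KO and Control samples. The fibroblast list summed to 26.4 to 29.9 FPKM in Spry1_KO samples, against 14.6 to 22.6 FPKM in Control samples, with 1 of 7 tested genes higher and 4 lower. The higher gene was Fbln1, and without it the list summed to 4.63 to 9.14 FPKM in Spry1_KO samples, against 12.5 to 20.6 FPKM in Control samples. Of the lower genes, Col1a2, Col3a1 and Dpt averaged under 1 FPKM in Spry1_KO samples and passed the filter through Control samples. Skeletal muscle markers summed to 4.65 to 7.16 FPKM in Spry1_KO samples, against 19.6 to 75.6 FPKM in Control samples, with 7 of 7 tested genes lower. Acta1, Ckm, Atp2a1, Pvalb, Tnnt3 and Tnni2 averaged under 1 FPKM in Spry1_KO samples and could pass the filter only through higher Control values. The part of these cell types in the fall of Bmp4 was not tested. Markers of endothelial cells, which line vessels, summed to 2.11 to 3.17 FPKM in Spry1_KO samples, against 2.18 to 7.10 FPKM in Control samples, and none of the 10 passed the filter.

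Langerhans cells and some lymphoid cells are known to need Id2. Beside the counts that follow, 29.6% of all tested genes were higher and 24.4% lower. Langerhans cell markers summed to 518 to 780 FPKM in Spry1_KO samples, against 1400 to 2320 FPKM in Control samples, with 7 of 9 tested genes lower and 1 higher. The higher gene, Cd1d1, averaged under 1 FPKM in Control samples and passed the filter through Spry1_KO samples. T cell markers summed to 36.6 to 70.4 FPKM in Spry1_KO samples, against 146 to 205 FPKM in Control samples, with 6 of 10 lower. These 6 were Cd3d, Cd3e, Cd3g, Trdc, Trdv4 and Tcrg-V5. Trdv4 averaged 5.24 and Tcrg-V5 1.26 FPKM in Spry1_KO samples, against 54.0 and 42.8 FPKM in Control samples. Cd2, Lck, Thy1 and Zap70 were not called, at 5.62, 4.75, 25.7 and 3.26 FPKM in Spry1_KO samples, against 5.10, 4.64, 23.4 and 3.98 FPKM in Control samples. Macrophage and neutrophil markers went the other way, at 353 to 717 FPKM in Spry1_KO samples, against 19.2 to 34.2 FPKM in Control samples, with 7 of 9 tested genes higher and 1, Adgre1, lower. S100a9 made up most of that sum in Spry1_KO samples, and without it the list summed to 66.1 to 122 FPKM in Spry1_KO samples, against 17.0 to 28.3 FPKM in Control samples. The higher genes C1qc, Cd14, Mrc1 and Cxcr2 averaged under 1 FPKM in Control samples and passed the filter through Spry1_KO samples. Ly6g was listed at 0 in every Control sample and in Spry1_KO replicates 2 and 3. Melanocyte markers summed to 219 to 224 FPKM in Spry1_KO samples, against 11.7 to 15.0 FPKM in Control samples, with 8 of 9 higher. Of these, Mlana, Tyr, Kit, Sox10 and Slc45a2 averaged under 1 FPKM in Control samples and passed the filter through Spry1_KO samples. Hair follicle stem cell and germ markers summed to 749 to 1040 FPKM in Spry1_KO samples, against 2972 to 3821 FPKM in Control samples, a sum led by Krt15, although 3 of 9 tested genes were higher and 1 lower. Of the higher genes, Tcf7l1 averaged under 1 FPKM in Control samples. Hair shaft and matrix markers differed little in sum, at 10.6 to 14.3 FPKM in Spry1_KO samples and 9.76 to 11.5 FPKM in Control samples. Of its 2 tested genes 1, Hoxc13, was higher, at 4.83 and 2.10 FPKM in Spry1_KO and Control samples, while Krt35 was listed at 0 in every Spry1_KO sample and averaged 0.218 FPKM in Control samples. The part of these cells in the values of the Id genes was not tested.

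The rest of the pathway was read from lists by role. Of 18 other ligand genes 4 were tested, and 5 were listed at 0 in every sample. Of the 4 tested, 1 rose and 1 fell, where 29.6% and 24.4% of all tested genes did. The median log2 fold change of the tested genes was -0.44. Bmp3, a ligand known to oppose other BMPs, fell to 0.289 ± 0.0768 FPKM in Spry1_KO samples, against 4.07 ± 0.896 FPKM in Control samples (SD, n = 3 each; limma adjusted p = 0.000119). Bmp3 passed the filter through Control samples. Inhbb, the subunit of activin B, rose to 13.0 ± 1.01 FPKM in Spry1_KO samples, against 5.08 ± 1.67 FPKM in Control samples, with a limma adjusted p of 0.0024. It was therefore far above Inhba in both genotypes. Bmp6 averaged 1.43 and 2.92 FPKM in Spry1_KO and Control samples and was not called (limma adjusted p of 0.0627), though it was called lower after scaling to TPM (0.0187) and under 5 other alternatives. Inha, the inhibin alpha subunit, was not called either, at 2.57 FPKM in Spry1_KO samples and 3.74 FPKM in Control samples.

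Receptor genes fell more often than they rose, with 7 of 11 tested lower and 1 higher. Over all tested genes 24.4% were lower and 29.6% higher. The median log2 fold change of the tested receptor genes was -0.47. Acvr2b, among the lower genes, averaged 0.592 FPKM in Spry1_KO samples and passed the filter through Control samples. The largest fall was that of Rgmb, a BMP co-receptor, with a log2 fold change of -2.48 and means of 4.51 and 29.7 FPKM in Spry1_KO and Control samples. Tgfbr3, the co-receptor betaglycan, fell by 1.41, and the type II receptors Acvr2a and Bmpr2 by 0.48 and 0.47 on the log2 scale. Acvr1, a type I receptor for BMPs, rose by 0.43, a call lost after scaling to TPM (limma adjusted p of 0.285) and in limma-voom (0.0533). Bmpr1a, the most abundant type I BMP receptor on the list, averaged 29.6 and 26.8 FPKM in Spry1_KO and Control samples and was not called, nor was the co-receptor Rgma, at 10.3 FPKM in Spry1_KO samples and 8.01 FPKM in Control samples.

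Among other extracellular antagonists and modulators, 2 of 9 tested genes rose and 5 fell, where 29.6% and 24.4% of all tested genes did. The median log2 fold change of the 9 was -0.45. Fstl1, among those that fell, averaged 0.614 FPKM in Spry1_KO samples and passed the filter through Control samples. Sostdc1, a secreted BMP and Wnt antagonist, read 52.9, 54.7 and 42.4 FPKM in Spry1_KO samples, against 24.1, 24.3 and 29.2 FPKM in Control samples, and rose by 0.92 on the log2 scale (limma adjusted p = 0.00114). Fstl3, a follistatin relative that binds activin, fell by 1.26 on the log2 scale, opposite to Fst. Crim1, Nbl1 and Twsg1, which encode modulators of BMP activity, fell by 0.93, 0.59 and 0.45. Nog, which encodes the BMP antagonist noggin, averaged 1.96 and 0.882 FPKM in Spry1_KO and Control samples and narrowly missed the threshold (limma adjusted p of 0.0527), and Grem1, another antagonist, averaged 1.38 FPKM in Spry1_KO samples and 1.90 FPKM in Control samples and was not called.

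**Figure D4:**
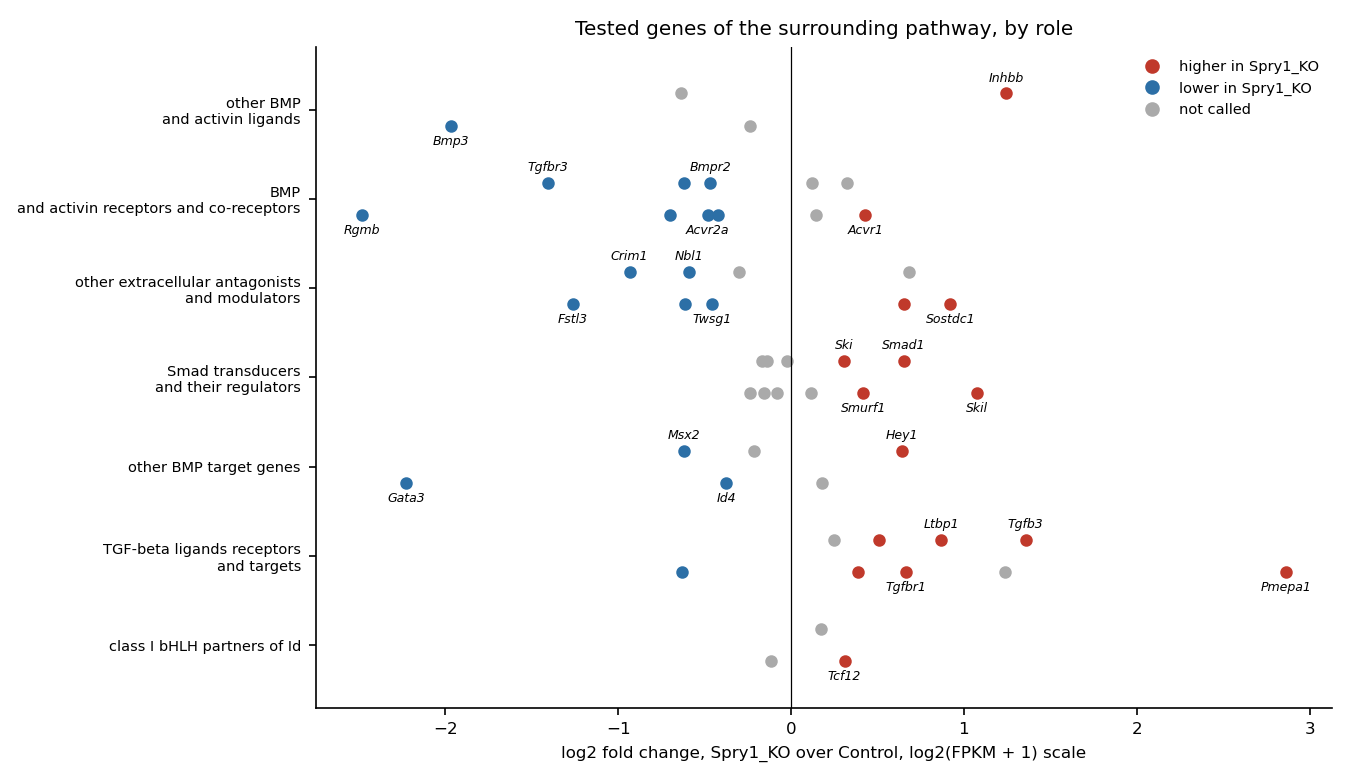
Log2 fold change, Spry1_KO over Control on the log2(FPKM + 1) scale, of the tested genes of the 7 pathway lists, with 1 gene not drawn (red higher, blue lower, grey not called), with the named called genes labelled. Receptors lie mostly left of 0, with 7 of 11 lower, and TGF-beta genes mostly right of it, with 7 of 10 higher.

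Of the Smad transducers and their regulators, 4 of 11 tested genes rose and 0 fell in limma, where 29.6% and 24.4% of all tested genes did, and the median log2 fold change was -0.02. Smad5, a BMP-regulated transducer, was the 1 uncalled gene with an unadjusted limma p under 0.05 (0.036, adjusted p of 0.0633), at 13.2 and 15.8 FPKM in Spry1_KO and Control samples. The direction of this list depended on the scaling, with 1 gene higher and 4 lower after scaling to TPM and 3 higher and 4 lower after scaling to the recovered reads. That of the whole table did too. Scaling to TPM gave 2055 higher and 4470 lower of 12629 tested genes, and scaling to the recovered reads 2876 and 3736 of 12539. Skil, a Smad corepressor that TGF-beta signalling induces, rose by 1.07 on the log2 scale, with a limma adjusted p of 0.0003. Smad1, the BMP-regulated transducer, rose by 0.65 and Smurf1, a ubiquitin ligase for Smads, by 0.42, and neither was called after scaling to TPM (limma adjusted p of 0.0799 and 0.226). The corepressor Ski rose by 0.31, a call lost under 6 alternatives. Smad4, the shared partner, averaged 19.3 and 20.4 FPKM in Spry1_KO and Control samples and Smad2 averaged 16.6 FPKM in Spry1_KO samples and 15.2 FPKM in Control samples, and neither was called.

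Other BMP targets were divided, with 1 of 6 tested higher and 3 lower, where 29.6% and 24.4% of all tested genes were, and a median log2 fold change of -0.30. Gata3, an epidermal transcription factor, fell to 18.4 ± 3.95 FPKM in Spry1_KO samples, against 88.9 ± 9.98 FPKM in Control samples (SD, n = 3 each; limma adjusted p = 9.78e-05). Msx2, a homeobox gene, and Id4, the remaining Id gene, fell by 0.62 and 0.38, and Hey1, a transcriptional repressor, rose by 0.64. Msx2 averaged 0.745 FPKM in Spry1_KO samples and passed the filter through Control samples. Hey1 averaged 0.579 FPKM in Control samples and passed it through Spry1_KO samples. Hey1 lay close to the filter and was called in the 11 of 16 alternatives that tested it. The Id4 call was lost under 6 alternatives and that of Msx2 under 7, and the list had 1 called gene without Spry1_KO replicate 1 or 3 and 2 without Control replicate 1 or 2. Dlx5 and Dlx3, homeobox genes, averaged 6.69 and 4.94 FPKM in Spry1_KO samples, against 5.80 and 5.98 FPKM in Control samples, and were not called.

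The TGF-beta branch shares Smad2, Smad3 and Smad4 with activin. Of its 10 tested genes 7 rose and 1 fell, where 29.6% and 24.4% of all tested genes did. The median log2 fold change of these 10 genes was 0.77. The gene that fell was Tgfbi, at 91.2 FPKM in Spry1_KO samples and 141 FPKM in Control samples (limma adjusted p of 0.00759). Pmepa1, a TGF-beta-induced inhibitor of Smad signalling, rose to 14.9 ± 4.01 FPKM in Spry1_KO samples, against 1.16 ± 0.290 FPKM in Control samples (SD, n = 3 each; limma adjusted p = 7.32e-05). The ligand Tgfb3, the receptor Tgfbr1 and the latent TGF-beta binding protein gene Ltbp1 rose by 1.36, 0.66 and 0.87 on the log2 scale. Ltbp1 averaged 0.626 FPKM in Control samples and passed the filter through Spry1_KO samples. Thbs1 averaged 49.3 ± 8.28 FPKM in Spry1_KO samples, against 28.5 ± 27.1 FPKM in Control samples, and was not called, but without Control replicate 3 it was (log2 fold change 1.98, limma adjusted p of 0.0103). Ctgf, at 23.5 FPKM in Spry1_KO samples and 21.9 FPKM in Control samples, was not called. Of the 3 genes for the E proteins that Id proteins bind, 1 rose, where 29.6% of all tested genes did. It was Tcf12, which rose by 0.31 on the log2 scale. The call was lost after scaling to TPM (limma adjusted p of 0.594) or to the recovered reads (0.068), in limma-voom (0.0608) and with the replicate block (0.0502). Tcf3 and Tcf4 were not called, except that limma-voom called Tcf4 lower (adjusted p of 0.0314). The median log2 fold change of these genes was 0.17.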

How the data were processed

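RNA-seq of back epidermis from 3 Spry1_KO and 3 Control samples was used, grouped by sample title. The authors deposited 1 table of FPKM values for 54532 genes. The submitters' processing notes name HISAT2 2.0.5, featureCounts 1.5.0-p3 and the build GRCm38, and per the labels' protocols 0.4 ug of total RNA went into each library. The sources used here do not give the annotation release, the strand setting or how FPKM was computed, so reads from overlapping antisense genes cannot be separated.

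Gene models came from GENCODE M21 (GRCm38), which matched 54495 IDs. Names turned into dates, 27 in all, were replaced by ID. FPKM multiplied by exon length gave whole reads for 97.0% to 97.3% of values above 0 (tolerance 0.1 reads), including those of all 10 members. The totals behind the authors' scaling were 88.1% to 95.6% of these reads in Spry1_KO samples and 98.8% to 103% in Control samples.

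Genotype was the single term of a two-sided limma-trend fit (limma 3.58.1, R 4.3.3) of log2(FPKM + 1) for genes averaging 1 FPKM or more. The fit was also run on simulated data. These held no outlying sample and no scaling difference between groups, so that run does not cover such features of the real data. Lists are described by counts and medians without a test. The alternatives changed the pseudocount (0.1), the filter (none, or protein-coding genes), the scaling (median ratio, TPM) or the weights (array weights), added a replicate block, left out each sample in turn or Spry1_KO replicate 2 with Control replicate 3, or used limma-voom on the recovered reads. Scaling to recovered reads was added after seeing the data. Promoter sequences are from RefSeq (GRCm38.p6), which matched 5 of the 10 members. The members, lists and alternatives were chosen with earlier results of these data known. All members are named, and of each pathway list up to 5 called genes with the lowest p and the 2 most abundant uncalled ones. A gene that this rule selects is not reported here. Smad5, Acvr2b, Fstl1, Tgfbi and the single cell type markers other than Sox2, Ly6g and Krt35 were named after their values were seen. Plots were made in matplotlib 3.10.9 (Python 3.11.15).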

Additional observations from a re-analysis of the deposited data

How the results depend on the processing

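Bmp4, Bmp7, Fst and Smad6 kept their direction and call under all 16 alternatives, with log2 fold changes of -6.00 to -3.59, 0.86 to 1.19, 0.72 to 1.05 and 1.29 to 2.38. Without 1 sample at a time Bmp2 ranged from -0.44 to 0.070 and Id1 from -0.075 to 0.28, neither ever called, and Id1 was also negative after scaling to TPM (-0.22) or to recovered reads (-0.072) and in limma-voom (-0.092). Without 1 sample, or the pair of Spry1_KO replicate 2 and Control replicate 3, Id2 ranged from -0.54 to -0.27, Id3 from 0.69 to 1.25 and Smad7 from 0.35 to 0.49, each uncalled in part of these. With no filter Id2 (-0.38) and Id3 (0.92) were uncalled, at the same fold change. Id3 was also uncalled after scaling to TPM (0.65) or to recovered reads (0.79), and Smad7 after both (0.21 and 0.30), in limma-voom (0.36) and with both Spry1_KO replicate 2 and Control replicate 3 left out (0.36). The cause of the changes with scaling was not tested. The difference of Inhba was 0.48, or 1.65 with a pseudocount of 0.1, 0.79 after scaling to TPM and 2.20 in limma-voom. Among the lists, called ligands numbered 4 with no filter, Smad transducers 7 after scaling to recovered reads, with array weights and in limma-voom, TGF-beta genes 5 in limma-voom, other BMP targets 2 with the replicate block and 1 to 3 without 1 sample, and E protein genes 0 in limma after scaling to TPM or recovered reads and with the replicate block (Tcf12 at an adjusted p of 0.594 under TPM), while limma-voom gave 0 higher and 1 lower. The genotypes shared replicate numbers. Deviations of same-numbered samples from their group means correlated at -0.0981 to -0.125, and 0 of the 3 Spry1_KO samples correlated best with its own number. With 3 samples in each group, these values cannot settle whether samples were paired. A replicate block gave 5834 called genes against 6815 and changed no call of a member. Depth limits Bmp4 in Spry1_KO samples, at 10 to 21 reads, and Inhba.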

Other observations

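Genes of the lists that lay below the filter were looked at with no filter, and those named here were chosen after their values were seen. Atoh8, a BMP-induced basic helix-loop-helix gene, averaged 1.39 FPKM in Spry1_KO samples and 0.0360 FPKM in Control samples, with a log2 fold change of 1.15 ± 0.26 (SE) and a limma adjusted p of 0.0207. Msx1, a homeobox relative of Msx2, averaged 0.455 FPKM in Spry1_KO samples and 0.150 FPKM in Control samples (limma adjusted p of 0.0112), so it differed in the direction opposite to Msx2. Gdf11, an activin-like ligand gene, averaged 0.228 FPKM in Spry1_KO samples and 0.0531 FPKM in Control samples (limma adjusted p of 0.0124). Tgfb2 averaged 0.561 FPKM in Spry1_KO samples and 1.25 FPKM in Control samples (limma adjusted p of 0.0207), the direction opposite to Tgfb3. These levels are low, and the log2(FPKM + 1) scale understates their change.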
